A study of Homo sapiens with 6 samples.

Results

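The 34 genes described here encode the working parts of the lysosome and of autophagy: 9 hydrolases, 5 membrane and cholesterol proteins, 5 subunits of the proton pump, 13 proteins of the autophagy machinery and 2 transcription factors. They were taken from a list of symbols, matched to Ensembl identifiers, and all 34 were found among the 30330 genes of each library and passed the filter on low values. The lysosome is an acidic organelle in which hydrolases break down proteins, glycans and lipids, kept acid by the vacuolar proton pump (V-ATPase). In autophagy a double membrane closes around cytoplasm or damaged organelles and fuses with the lysosome. Its steps run in order through the ULK1 kinase, the BECN1 lipid kinase complex, a pair of ubiquitin-like conjugation systems and the ATG8 proteins that cargo receptors bind. TFEB and TFE3 activate many lysosomal genes through an E-box, and mTORC1 at the lysosomal surface holds them in the cytosol.

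RNA-seq was done on H1975/OSI, an osimertinib-resistant derivative of the human lung adenocarcinoma line NCI-H1975, and on control NCI-H1975, with 3 libraries each. Osimertinib inhibits the mutant epidermal growth factor receptor on which the parental line depends. The resistant line was selected through 0.03, 0.1, 0.3, 1 and 3 µM over 7 months and held at 3 µM, per the labels. It is 1 derived line, and the labels state neither whether drug was present at harvest nor whether replicates are separate cultures. The p-values here therefore cover only library-to-library spread, some or all of which may be technical. In bulk RNA, fewer cells expressing a gene and less RNA of it per cell cannot be told apart.

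Depth was 15174126 to 16276518 reads in resistant and 15813497 to 16588479 reads in control libraries. Among the resistant libraries, number 1 was unlike its replicates, with a chi-square per gene of 10.8 (against library 2) and 12.1 (against library 3), where libraries 2 and 3 differed by 2.32. Mitochondrial transcripts took 5.33 to 5.66% of reads in resistant and 6.46 to 7.34% in control libraries. Of 9 lung epithelial markers, 5 fell and 1 rose, and their sum was 40681 to 47451 in resistant and 58953 to 62262 in control libraries. The keratins KRT7, KRT8 and KRT18 were high in every library, but KRT8 and KRT18 were among the markers that fell. The resistant mean was 0.703 times the control mean for KRT8, 0.755 for KRT18, 0.453 for KRT19 and 0.315 for CDH1. KRT7 did not pass the test (0.959), and NKX2-1 was the marker that rose (1.61). EPCAM had 15.7 to 19.7 counts in resistant libraries, against 353 to 391 in control libraries. Among markers of other cell types, the summed endothelial level was 557 to 751 in resistant and 289 to 329 in control libraries, with 1 of 3 higher (CDH5) and 1 lower (PECAM1). The leukocyte sum was 280 to 336 in resistant and 409 to 417 in control libraries (1 of 2 higher, 1 lower), and the fibroblast sum was 117 to 155 in resistant and 81.0 to 130 in control libraries, with 2 of 3 higher and 1 lower. These are the markers matched in the files, all 3 endothelial, 3 of 5 fibroblast and 2 of 4 leukocyte markers listed. The other 4, PDGFRA, DCN, PTPRC and CD3E, had no match there, so no level can be given for them. None of those matched was at 0 in every library, which says nothing of the 4 without a match. The part of the matched markers in the results below was not tested.

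Levels below are normalized read counts, meaning the reads of a gene over a library-wide size factor, given for libraries 1, 2 and 3 in order. Fold changes are log2, resistant over control, on log2(value + 1), with adjusted p-values from limma-trend, Benjamini-Hochberg over all 24560 tested genes and a threshold of 0.05. Of the 34 genes, 14 were called higher and 11 lower in the resistant line. Over all tested genes the call rate was 41.5% in either direction, 20.4% higher and 21.1% lower, while 73.5% of the 34 genes were called. Among 9614 protein-coding genes with mean levels between 161 and 8452, the range of these 34 genes, 64.2% were called, 27.8% higher and 36.5% lower. The median log2 fold change was 0.12 over the 34 genes and 0.01 over all tested genes.

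The changes were small for most of these genes and ran in both directions within every functional class of 3 or more. A single gene, GABARAPL1, changed by over 2-fold, against 13.6% of all tested genes called at 2-fold or more. ATG7 lay just inside 2-fold at -0.99, and passed it without resistant 1 (-1.04), without control 3 (-1.02) and with median centring (-1.12), where SQSTM1 passed too (-1.07). The groups did not overlap for 26 of the 34 genes, 16 above and 10 below. Of all tested genes, 50.1% did not overlap, 24.7% above and 25.4% below. This share and the 13.6% cover tested genes of every level, and neither was taken for genes of similar level. The call and direction of 15 genes held in all 18 other settings tried. Those were 6 higher genes (GABARAPL1, CTSD, NPC2, ULK1, OPTN and ATP6V1A) and 9 lower genes (ATG7, SQSTM1, BECN1, ATP6V0A1, CTSB, GLA, ATG12, CTSL and ATG16L1). Median centring of the libraries moved the median log2 fold change of all genes by -0.13, left 6 of the 34 genes called higher, and turned the split of all calls to 35.8% higher, against 49.1% without it. The smaller rises that it ends are named beside each gene below.

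**Figure D1:**
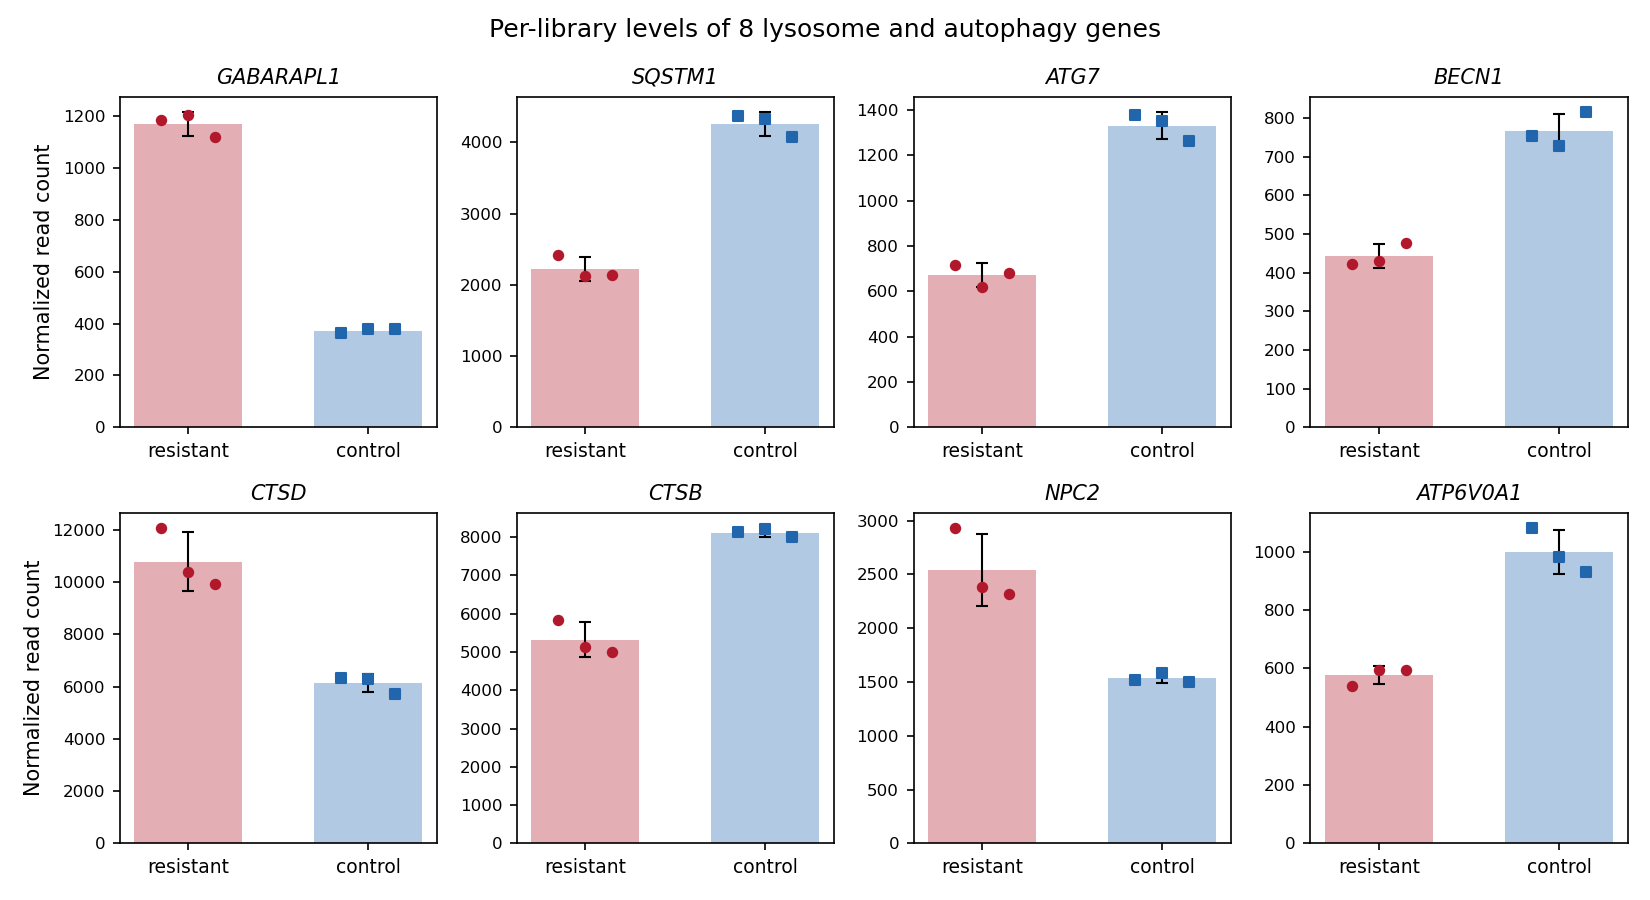
Normalized read counts (y axes, from 0) of 8 genes in 3 resistant and 3 control libraries. Bars are means, error bars SD, and points single libraries. Resistant libraries lay above all controls for GABARAPL1, CTSD and NPC2, and below all controls for SQSTM1, ATG7, BECN1, CTSB and ATP6V0A1.

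TFEB and TFE3 bind the E-box CACGTG, and lysosomal promoters often hold it preceded by GT and followed by AC, a longer palindrome. RefSeq promoter windows (GRCh38.p14, 250 bases before to 50 after a start) were found for 27 of the 34 genes, 34 windows in all. Both motifs read the same on either strand, and the longer one contains the shorter. CACGTG stood in 7 of the 34 windows (20.6%), each of a different gene, and in 7.26% of all 35116 promoter windows. The longer motif stood in 2 windows (5.88%), those of GAA and MCOLN1, against 0.353% of all windows. The 30-base stretches below show sites in 6 of these genes, chosen to set the complete palindrome beside diverging flanks. Capitals mark the E-box, and each is read 5′ to 3′ on the gene's strand.
GAA, chr17:80101493-80101522, plus strand: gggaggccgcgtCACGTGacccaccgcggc
GAA, chr17:80101538-80101567, plus strand: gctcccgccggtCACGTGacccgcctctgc
MCOLN1, chr19:7522598-7522627, plus strand: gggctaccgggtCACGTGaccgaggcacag
LAMP1, chr13:113297199-113297228, plus strand: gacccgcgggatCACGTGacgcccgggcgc
CTSA, chr20:45891298-45891327, plus strand: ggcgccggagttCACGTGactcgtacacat
CTSD, chr11:1763957-1763986, minus strand: gccggccgcgccCACGTGaccggtccgggt
ATP6V0D1, chr16:67481199-67481228, minus strand: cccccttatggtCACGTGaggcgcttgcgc

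The 7 genes with an E-box in the window did not change as 1 group. CTSD, GAA and LAMP1 rose, MCOLN1 fell, and CTSA, ATP6V0D1 and TBK1 did not pass the test, with a median log2 fold change of 0.12. Of the 20 matched genes without one, 8 rose, 9 fell and 3 did not pass, with a median of 0.05. Beside these counts, 27.8% of protein-coding genes at similar level were called higher and 36.5% lower. A match describes letters in a window and not binding.

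Among the hydrolases, the cathepsins separated, with CTSD higher and CTSB and CTSL lower in the resistant line. CTSD, the main aspartic protease of the lysosome (ENSG00000117984, GRCh38 chromosome 11, 1752752 to 1764573), had 12047, 10383 and 9910 counts in resistant libraries, against 6343, 6305 and 5726 in control libraries. Every resistant library was above every control, with resistant 1 the highest (log2 fold change 0.81 ± 0.07 SE, limma adjusted p = 1.29e-09). CTSD shares 41.7% of its exon bases with AC068580.4, a same-strand protein-coding gene listed at 80.4 counts in resistant and 17.3 in control libraries. How the counting treated strand is not stated in the sources used here, so reads of overlapping genes cannot be told apart, on either strand. CTSB, a cysteine protease, had 5837, 5134 and 4998 counts in resistant libraries, against 8144, 8212 and 8005 in control libraries. The groups did not overlap and the controls lay close together (log2 fold change -0.61 ± 0.06 SE, limma adjusted p = 3.51e-08). CTSL, another cysteine protease, had 1939, 1618 and 1610 counts in resistant and 2342, 2305 and 2320 in control libraries. It fell by 0.44 on the log2 scale (limma adjusted p = 2.71e-05), and resistant 1 was the closest to the controls.

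CTSZ and CTSA did not pass the test. CTSZ, a cysteine carboxypeptidase, lay between 2395 and 2617 counts in resistant and between 2250 and 2366 in control libraries, groups that did not overlap (log2 fold change 0.12, 95% interval -0.01 to 0.25, limma adjusted p = 0.136). CTSA, a serine carboxypeptidase that also protects beta-galactosidase from breakdown, had 4309 to 5035 counts in resistant and 4060 to 4397 in control libraries (0.12, interval -0.01 to 0.26, limma adjusted p = 0.149). Both were called higher with quantile normalization, CTSZ at 0.20 and CTSA at 0.22, and both turned to -0.01 with median centring. CTSA shares 3.42% of its exon bases with PLTP on the other strand, at 3696 counts in resistant and 5426 in control libraries on average.

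The glycosidases also differed among themselves. GLA, alpha-galactosidase A, had 658, 707 and 617 counts in resistant libraries, against 914, 899 and 992 in control libraries. It fell by 0.50 on the log2 scale with no overlap (limma adjusted p = 1.33e-05). GLB1, the lysosomal beta-galactosidase, had 1871, 1748 and 1700 counts in resistant and 1432, 1623 and 1401 in control libraries, a rise of 0.26 (limma adjusted p = 0.00548). GAA, the acid alpha-glucosidase that degrades glycogen, had 2829, 2474 and 2535 counts in resistant and 2340, 2308 and 2048 in control libraries, a rise of 0.23 (limma adjusted p = 0.012). The calls of GLB1 and GAA ended with median centring (0.12 and 0.09) and with limma without trend, and that of GAA also without control 3 (0.17). HEXA, the alpha subunit of beta-hexosaminidase A, overlapped between groups, with 377 to 494 counts in resistant and 356 to 412 in control libraries (0.17, interval -0.04 to 0.39). HEXA was called without resistant 3 (0.27).

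Of protein-coding genes at similar level, 27.8% were called higher and 36.5% lower, and of all tested genes 20.4% and 21.1%. Beside these shares, 3 hydrolases rose, 3 fell and 3 did not pass, with a median of 0.12 (-0.01 with median centring). Resistant library 1 was the highest of the resistant libraries in this class, where the log2 difference from the control mean averaged 0.13 over the class, while it averaged -0.003 in resistant 2 and -0.08 in resistant 3.

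Among the membrane and cholesterol proteins, NPC2 and NPC1 changed in opposite directions, although both act in the same transfer of cholesterol out of the lysosome. NPC2, the soluble carrier (chromosome 14, 74476192 to 74494177), had 2927, 2381 and 2318 counts in resistant libraries, against 1518, 1584 and 1500 in control libraries. Each resistant library was above every control (log2 fold change 0.72 ± 0.08 SE, limma adjusted p = 4.9e-08). NPC1, the membrane transporter that takes cholesterol from NPC2, had 1491, 1206 and 1241 counts in resistant and 1802, 1751 and 1458 in control libraries. It fell by 0.35 on the log2 scale (limma adjusted p = 0.00318), with resistant 1 just above control 3, and lost its call with limma without trend.

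LAMP1 and LAMP2, the abundant glycoproteins that line the lysosomal membrane, both rose by small amounts. LAMP1 had 5026, 4631 and 4883 counts in resistant and 4188, 4241 and 3886 in control libraries (0.24, limma adjusted p = 0.00319). LAMP2 had 5709, 5534 and 5644 counts in resistant and 4730, 4868 and 5153 in control libraries (0.20, limma adjusted p = 0.0111). Neither gene's groups overlapped, but both calls ended with median centring (0.11 and 0.06) and with limma without trend, and that of LAMP2 also without control 1 (0.17) or control 2 (0.19). MCOLN1, the lysosomal calcium channel TRPML1, had 389, 435 and 408 counts in resistant and 533, 517 and 478 in control libraries. It fell by 0.31 on the log2 scale (limma adjusted p = 0.00673), a call lost with limma without trend. All 5 members of this class were thus called, 3 higher and 2 lower, with a median of 0.20. Beside this, 41.5% of all tested genes and 64.2% of the protein-coding genes of similar level were called.

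The proton pump subunits were not changed together. The V1 part of the pump, in the cytosol, splits ATP, and the V0 part, in the membrane, passes protons. ATP6V1A, the catalytic A subunit of V1, had 2063, 2222 and 2245 counts in resistant libraries, against 1535, 1578 and 1622 in control libraries. It rose with no overlap (0.46 ± 0.07 SE, limma adjusted p = 3.3e-06). ATP6V1H, a regulatory V1 subunit, lay at 567 to 657 counts in resistant and 478 to 546 in control libraries (0.28, limma adjusted p = 0.0128), a call that ended with median centring (0.14), with limma without trend and without control 1 (0.25) or control 3 (0.25). ATP6V1B2, the B subunit that pairs with A, overlapped between groups, with 968 to 1172 counts in resistant and 963 to 1031 in control libraries (0.05, interval -0.11 to 0.22, limma adjusted p = 0.632). ATP6V0D1, the d subunit of V0, lay at 1500 to 1672 counts in resistant and 1622 to 1791 in control libraries (-0.08, interval -0.23 to 0.06, limma adjusted p = 0.372), and was called lower with median centring (-0.22).

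ATP6V0A1, an a subunit of V0 that forms the proton path, was the pump gene that fell. It had 541, 595 and 595 counts in resistant libraries, against 1079, 982 and 931 in control libraries (-0.79 ± 0.08 SE, limma adjusted p = 2.11e-08). The a subunit comes in 4 forms, and the share of each was taken per kb of summed exon length. TCIRG1, the a3 form, added to complete the family, made up most of it, with 86.7 ± 1.27% in resistant and 82.0 ± 0.899% in control libraries (SD, n = 3), and its level did not pass the test (2190 ± 69.2 and 2232 ± 63.0 counts). The share of ATP6V0A1 was 9.15 ± 0.636% in resistant and 14.7 ± 0.863% in control libraries (SD, n = 3). Such shares depend on the length used, which counts every annotated exon, with 4384 bases for TCIRG1 and 10955 for ATP6V0A1. ATP6V0A2, the a2 form, also fell, with 142, 207 and 198 counts in resistant and 285, 270 and 265 in control libraries. ATP6V0A4, the a4 form known from acid-secreting kidney cells, was higher in every resistant library, with 39.8, 44.3 and 46.4 counts against 1.03, 4.16 and 1.93 in control libraries, a few reads each. It was 1.83 ± 0.162% of the family in resistant and 0.0922 ± 0.0610% in control libraries.

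**Figure D2:**
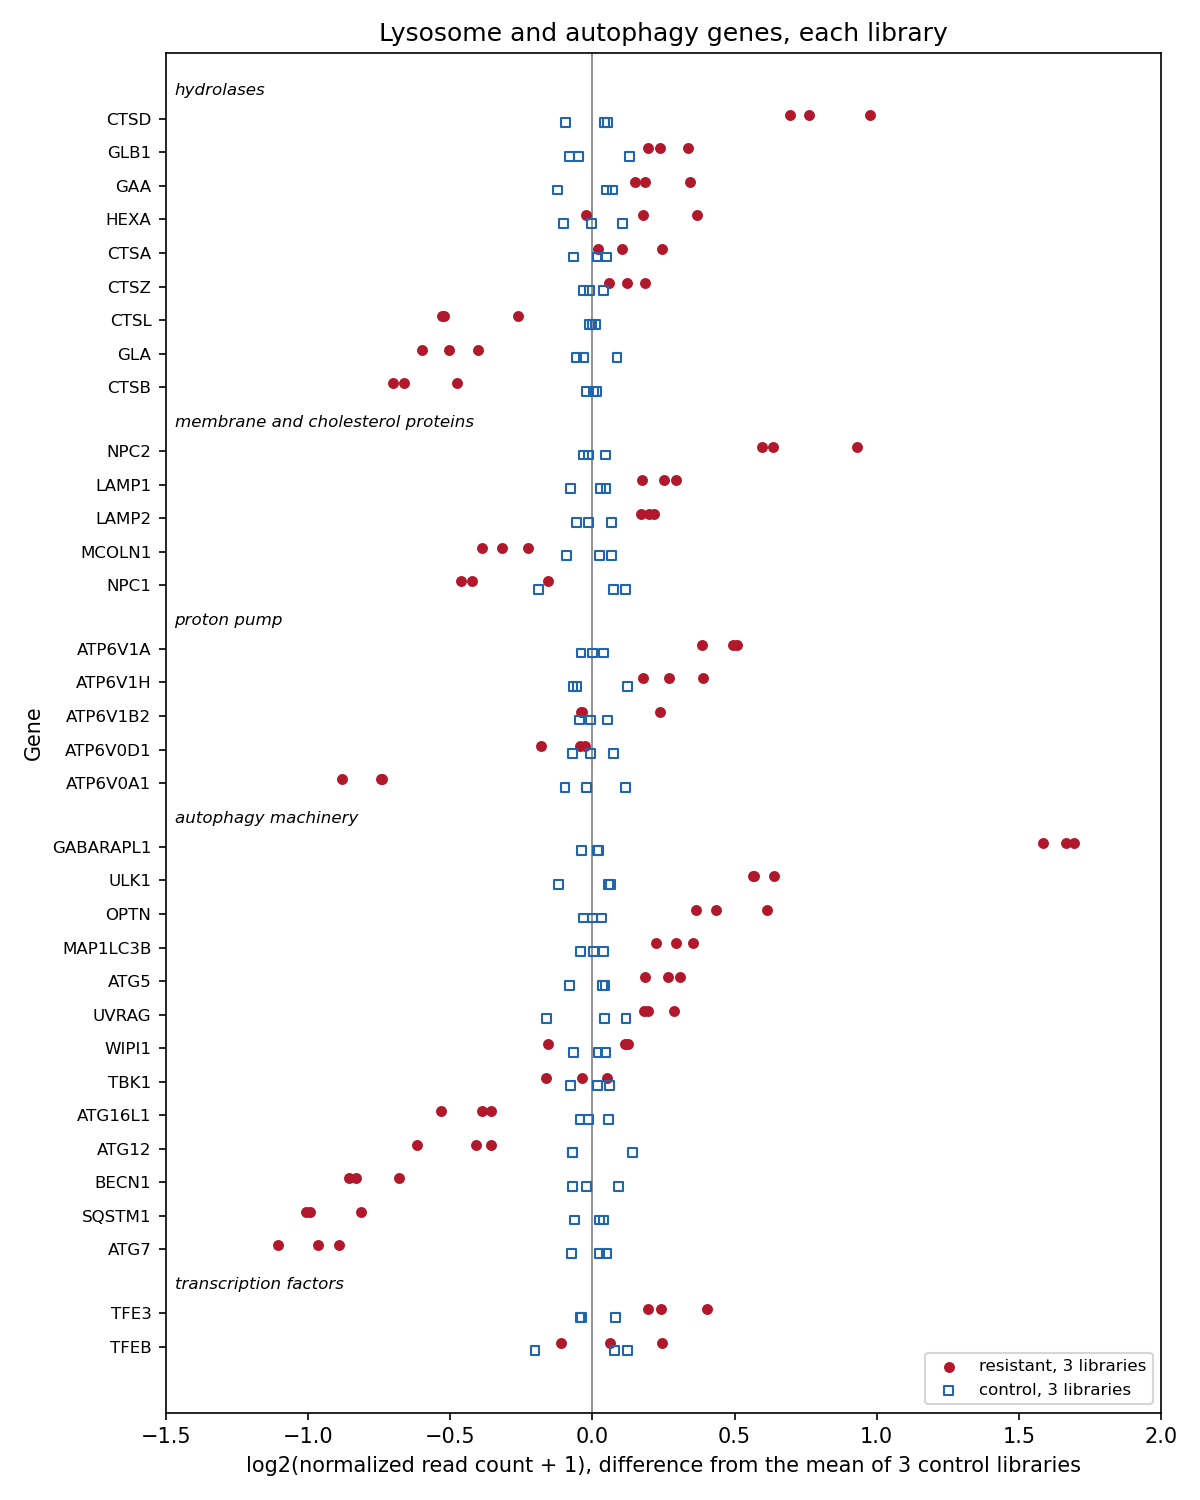
The 34 genes by class (rows), each library as its difference in log2(normalized read count + 1) from the mean of 3 control libraries (x axis). Filled circles are 3 resistant and open squares 3 control libraries. GABARAPL1 lies farthest right and ATG7 farthest left, and in every class of 5 or more genes some resistant points lie on each side of 0.

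Within the autophagy machinery, GABARAPL1 and ULK1 rose while ATG7, SQSTM1 and BECN1 fell. GABARAPL1, an ATG8 protein of the GABARAP branch (chromosome 12, 10212458 to 10223130, ENSG00000139112), had 1185, 1206 and 1119 counts in resistant libraries, against 362, 377 and 378 in control libraries. The resistant mean was 3.14 times the control mean (log2 fold change 1.65 ± 0.08 SE, limma adjusted p = 3.56e-14). MAP1LC3B, the LC3 protein most used as a marker of autophagosomes, had 2926, 2670 and 2803 counts in resistant and 2220, 2292 and 2349 in control libraries. It rose by 0.29 (limma adjusted p = 0.000648), a call that ended with median centring (0.16). Its near-identical copy MAP1LC3B2, with which reads can be shared, had 85.0 counts in resistant and 80.1 in control libraries on average.

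The make-up of the ATG8 family shifted towards GABARAPL1. Per kb, GABARAPL1 took 24.7 ± 1.17% of the 5 genes in resistant and 11.1 ± 0.0828% in control libraries (SD, n = 3). MAP1LC3B took 45.4 ± 1.03% in resistant and 52.6 ± 0.390% in control libraries, and GABARAPL2 20.7 ± 0.587% in resistant and 26.4 ± 0.215% in control libraries. The levels of GABARAPL2 and GABARAP did not pass the test, at 0.15 and 0.25 on the log2 scale, and MAP1LC3A, a minor member, rose by 0.50.

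**Figure D3:**
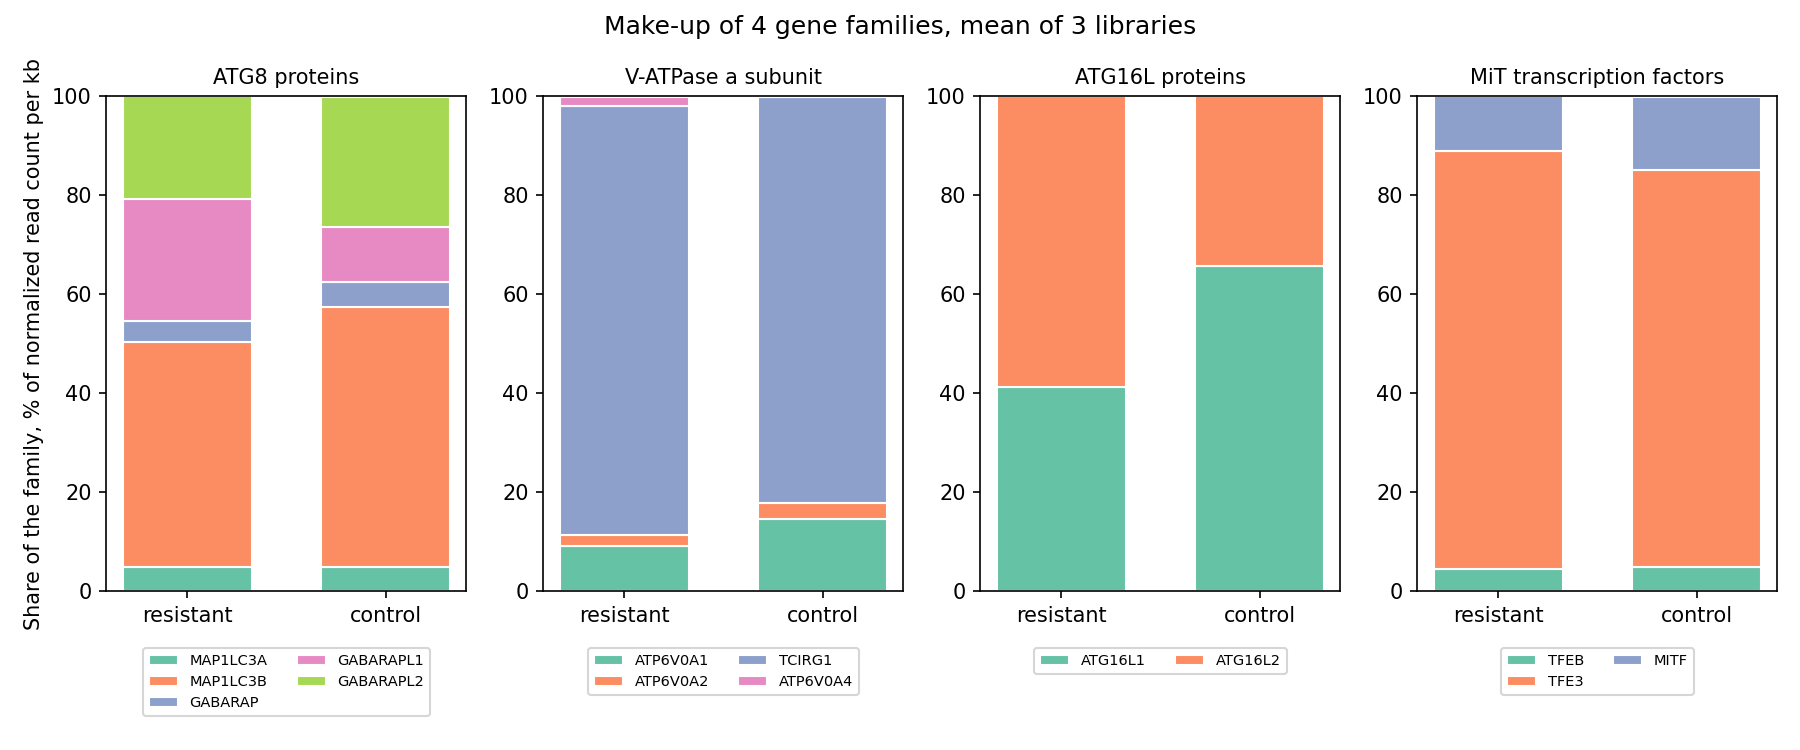
Share of each gene in its family (y axis, % of normalized read count per kb of summed exon length), as the mean of 3 libraries, resistant left and control right. GABARAPL1 is at 24.7% and 11.1% of the ATG8 genes, ATP6V0A1 at 9.15% and 14.7% of the a subunits, ATG16L1 at 41.3% and 65.7% of the ATG16L genes, and TFE3 at 84.5% and 80.3% of TFEB, TFE3 and MITF.

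Of the cargo receptors among the 34 genes, SQSTM1 and OPTN went in opposite directions. SQSTM1, which encodes p62 and links ubiquitinated cargo to ATG8 proteins (chromosome 5, 179806398 to 179838078, ENSG00000161011), had 2421, 2119 and 2140 counts in resistant libraries, against 4378, 4329 and 4072 in control libraries. All resistant libraries were far below the controls (log2 fold change -0.94 ± 0.07 SE, limma adjusted p = 5e-11). MRNIP on the other strand shares 20.7% of the exon bases of SQSTM1 and had 499 counts in resistant libraries and 415 in control libraries on average. OPTN, optineurin, a receptor for damaged mitochondria and bacteria, had 3978, 3347 and 3511 counts in resistant and 2599, 2545 and 2656 in control libraries (0.47 ± 0.07 SE, limma adjusted p = 4.29e-06). TBK1, the kinase that phosphorylates both receptors, overlapped between groups, with 496 to 575 counts in resistant and 526 to 579 in control libraries (-0.05, interval -0.23 to 0.13, limma adjusted p = 0.689). Of the receptors in the further autophagy list, NBR1 (-0.56), TAX1BP1 (-0.37) and CALCOCO2 (-0.32) fell and TOLLIP (0.26) rose. These further receptors were named after their values were seen.

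At the start of the pathway the kinase gene rose and the lipid kinase scaffold fell. ULK1, the initiating kinase, had 2021, 1926 and 1923 counts in resistant libraries, against 1356, 1350 and 1194 in control libraries (0.59 ± 0.07 SE, limma adjusted p = 2.04e-07). Its paralog ULK2 rose as well, with 720, 685 and 718 counts in resistant and 381, 397 and 378 in control libraries (0.88, limma adjusted p = 5.9e-09). BECN1, the scaffold of the class III phosphatidylinositol 3-kinase, had 422, 430 and 477 counts in resistant libraries, against 755, 728 and 815 in control libraries (-0.79 ± 0.08 SE, limma adjusted p = 4.72e-08). BECN1 shares 4.68% of its exon bases with PSME3 on the other strand, at 952 counts in resistant and 2409 in control libraries. UVRAG, a BECN1 partner, lay at 505 to 543 counts in resistant and 397 to 483 in control libraries, with no overlap, and did not pass (0.22, interval 0.03 to 0.41, limma adjusted p = 0.0557). It was called with quantile normalization (0.26), with a minimum of 5, without resistant 1 (0.23) and without control 3 (0.28). WIPI1, which reads the lipid product of that kinase, overlapped between groups, with 284 to 344 counts in resistant and 302 to 326 in control libraries (0.03, interval -0.19 to 0.24, limma adjusted p = 0.861). WIPI1 shares 24.3% of its exon bases with ARSG on the other strand, at 124 counts in resistant and 108 in control libraries on average. Of the relatives of WIPI1, WIPI2 fell (-0.48, limma adjusted p = 2.11e-06) and WDR45B rose (0.68, limma adjusted p = 1.6e-07).

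Of the conjugation genes among the 34, ATG7, ATG12 and ATG16L1 fell and ATG5 rose. In the further autophagy list, ATG3, the E2-like enzyme for the ATG8 proteins, fell (-0.47), and ATG10, the one for ATG12, did not pass the test (-0.02). Of the ATG8 proteases, ATG4B (0.29) and ATG4C (0.68) rose, and ATG4A (0.02) and ATG4D (0.01) did not pass the test. These genes of the further list were named after their values were seen. ATG7, the E1-like enzyme that activates both ATG12 and the ATG8 proteins (chromosome 3, 11272309 to 11557665, ENSG00000197548), had 717, 617 and 681 counts in resistant libraries, against 1376, 1352 and 1263 in control libraries. It had the largest fall of the 34 genes (-0.99 ± 0.08 SE, limma adjusted p = 2.17e-10), and shares 18.1% of its exon bases with VGLL4 on the other strand, at 746 counts in resistant and 516 in control libraries. ATG12, the ubiquitin-like protein joined to ATG5, had 938, 904 and 783 counts in resistant and 1144, 1145 and 1325 in control libraries, lower by a log2 fold change of -0.46 (limma adjusted p = 6.15e-05). ATG5 itself, its partner, was slightly higher, at 502 to 547 counts in resistant and 418 to 456 in control libraries (0.25, limma adjusted p = 0.0214). The ATG5 call ended with median centring (0.12), with limma without trend, without resistant 2 (0.23) and without control 3 (0.21).

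ATG16L1, which places the ATG12-ATG5 conjugate on the membrane, had 422, 467 and 477 counts in resistant and 593, 636 and 606 in control libraries (-0.43 ± 0.09 SE, limma adjusted p = 0.000244). Its paralog ATG16L2 rose, with 989, 869 and 911 counts in resistant and 451, 466 and 447 in control libraries (1.02, limma adjusted p = 2.78e-10). Per kb, the order of the pair turned: ATG16L1 was 41.3 ± 3.04% of their sum in resistant and 65.7 ± 0.439% in control libraries (SD, n = 3). Counting the whole machinery, 5 of 13 genes rose, 5 fell and 3 did not pass. Beside this, 27.8% of protein-coding genes at similar level were called higher and 36.5% lower. The median of the 13 genes was 0.03. That median turned below 0 with median centring (-0.11) and without resistant 2 (-0.02), resistant 3 (-0.02) or control 3 (-0.01).

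Of the transcription factors, TFE3 rose slightly and TFEB did not pass the test. TFE3 had 2544, 2276 and 2206 counts in resistant and 1869, 2039 and 1875 in control libraries (0.28, limma adjusted p = 0.00207), a call that ended with median centring (0.15) and with limma without trend. TFEB had 163, 145 and 185 counts in resistant and 165, 170 and 136 in control libraries, which overlapped (0.06, interval -0.22 to 0.35, limma adjusted p = 0.748). Per kb, TFE3 was the main factor of this family, at 547 ± 41.7 in resistant and 450 ± 22.5 in control libraries, while TFEB reached 29.1 ± 3.60 in resistant libraries and 27.8 ± 3.30 in control libraries (SD, n = 3). MITF, the related factor, was slightly lower, at 503 to 519 counts in resistant and 555 to 651 in control libraries (-0.22, limma adjusted p = 0.042).

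Per kb of exon, the order of levels was led by hydrolases in both lines. CTSD was first, at 3449 in resistant and 1959 in control libraries, and CTSZ second, at 1229 in resistant and 1129 in control libraries. CTSB was the eighth of the 34 genes in resistant libraries at 717 per kb, and the third in control libraries at 1093. TFEB and HEXA were the lowest per kb. The length counts every annotated exon of a gene, used in these cells or not, so the order between genes depends on it. HEXA, with 12611 exon bases, had 434 counts in resistant libraries on average, and WIPI1, with 3402, had 323. Summed over members, the hydrolases had 30448 ± 2555 counts in resistant and 28156 ± 862 in control libraries, and the proton pump 6007 ± 77.4 in resistant and 5775 ± 138 in control libraries (SD, n = 3). The autophagy machinery summed to 16117 ± 649 counts in resistant and 16493 ± 44.9 in control libraries (SD, n = 3). For the membrane and cholesterol proteins the sum was 14741 ± 710 in resistant and 12736 ± 245 in control libraries. For the transcription factors it was 2507 ± 175 in resistant and 2085 ± 109 in control libraries (SD, n = 3).

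Some of the lower genes lie among genes that were also lower, and some of the higher genes among genes with a raised median. The 25 tested genes on each side of a gene on its chromosome were taken as its neighbours, and their counts stand beside 20.4% higher and 21.1% lower over all tested genes. ATP6V0A1 and BECN1 are close to each other on chromosome 17, from 42458844 and from 42810134, and share part of these neighbours. Each is also counted among the lower neighbours of the other. Of 50 neighbours, 24 were lower and 3 higher for ATP6V0A1 (median log2 fold change -0.41), and 21 lower and 1 higher for BECN1 (median -0.46). For SQSTM1, 16 of 50 neighbours on chromosome 5 were lower and 3 higher (median -0.30), and for ATG12, elsewhere on that chromosome, 20 were lower and 4 higher (median -0.32). For WIPI1, also on chromosome 17, 19 of 50 neighbours were lower and 7 higher (median -0.62), while WIPI1 itself was at 0.03. GAA, at 0.23, had 17 of 50 neighbours higher and 7 lower (median 0.30). LAMP1, at 0.24, had 11 of 49 higher and 8 lower (median 0.26). HEXA, not called at 0.17, had 15 of 50 higher and 3 lower (median 0.35). Other genes fell among neighbours with a raised median, at 0.19 for CTSB, 0.19 for GLA and 0.20 for MCOLN1. The neighbours of ATG7 had a median of 0.02 and those of GABARAPL1 0.21. The part of the neighbourhood in each gene's change was not tested.

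**Figure D4:**
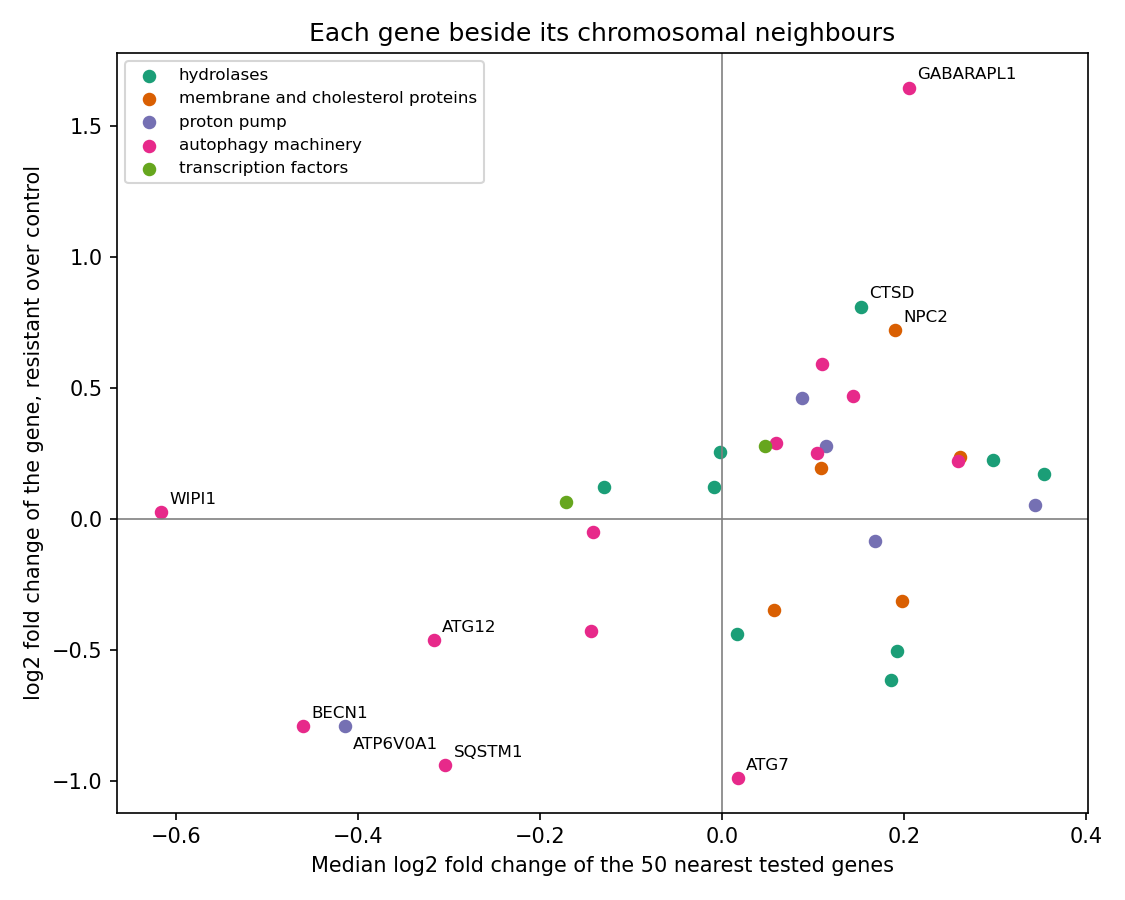
Log2 fold change of each of the 34 genes (y axis, resistant over control) against the median log2 fold change of its 50 nearest tested genes (49 for LAMP1) (x axis), coloured by class. ATP6V0A1, BECN1, SQSTM1 and ATG12 lie at lower left, with neighbour medians of -0.41, -0.46, -0.30 and -0.32, and ATG7 lies low with a neighbour median of 0.02.

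A further 6 lists, with 154 genes of which 153 were found, covered more of the pathway. Their counts stand beside 41.5% called over all tested genes (20.4% higher and 21.1% lower) and 64.2% called among the protein-coding genes of similar level described above. Of 38 other hydrolases and cofactors, 21 rose and 8 fell (76.3% called), with a median of 0.30. MANBA, beta-mannosidase, was higher by 1.54 on the log2 scale, with 991, 917 and 975 counts in resistant libraries against 314, 313 and 362 in control libraries. GALC, which splits galactosylceramide, rose by 1.02. The strongest falls were in cathepsins: CTSS, known for antigen processing, had 193, 210 and 215 counts in resistant libraries against 1117, 1139 and 1092 in control libraries (-2.43 ± 0.09 SE, limma adjusted p = 2.07e-16). CTSC, which activates serine proteases, had a log2 fold change of -1.24.

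Of 23 other membrane proteins and transporters, 9 rose and 2 fell (median 0.04), where 20.4% of all tested genes were higher and 21.1% lower. The 47.8% called was near the 41.5% over all tested genes and below the 64.2% of genes of similar level, with more rising than falling. SIDT2, a lysosomal membrane protein linked to nucleic acid uptake, rose by 1.02. MCOLN2, a relative of MCOLN1, was higher by 1.42, though it had only 22.4 to 43.4 counts in resistant and 6.75 to 15.6 in control libraries. The members that fell were SLC38A9, the arginine sensor of mTORC1 (-0.62), and CLCN7, the chloride-proton exchanger (-0.47). Of 18 other V-ATPase genes, 2 rose and 6 fell (median -0.12), so that more fell than rose. The 44.4% called was also near the share over all tested genes and below that of genes of similar level. ATP6AP2, an accessory protein needed to build the pump, had 5540, 5082 and 5155 counts in resistant libraries against 3642, 3477 and 3794 in control libraries (0.53, limma adjusted p = 2.17e-07). ATP6V0D2, a d subunit form of osteoclasts and macrophages, was near the limit of detection, with 0.923 to 5.10 counts in resistant and 5.20 to 10.6 in control libraries, and lost its call (-1.49, limma adjusted p = 0.0444) in 12 of 18 settings.

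Of 37 other autophagy genes, 10 rose and 13 fell (median -0.01, 62.2% called). VMP1, an endoplasmic reticulum protein that acts in autophagosome formation, had 5205, 5169 and 5106 counts in resistant libraries against 10937, 11082 and 11964 in control libraries (-1.13, limma adjusted p = 2.4e-13). VMP1 shares 2.34% of its exon bases with PTRH2 on the other strand, at 295 counts in resistant and 842 in control libraries on average. It also holds MIR21 on the same strand, which was not in the files. ATG101, a part of the ULK1 complex, fell by 0.79 on the log2 scale, while ULK2 and ATG16L2 rose as given above. Genes that sort enzymes and membranes to the lysosome were divided, with 6 of 19 higher and 7 lower (median -0.10, 68.4% called). VPS39 and VPS41, which share the HOPS tethering complex, had log2 fold changes of 0.37 and -0.43, and the adaptors GGA2 and GGA3 of 0.30 and -0.47. GGA3 shares 3.21% of its exon bases with MRPS7 on the other strand, at 493 counts in resistant and 1110 in control libraries on average.

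Among 19 tested genes that control TFEB at the lysosome, 6 rose and 4 fell (median -0.02, 52.6% called). RRAGD, a Rag GTPase through which mTORC1 acts on TFEB and TFE3, had 345, 218 and 176 counts in resistant libraries against 31.8, 29.1 and 45.3 in control libraries. The resistant libraries differed widely among themselves and all lay above the controls (2.73 ± 0.22 SE, limma adjusted p = 7.26e-09). Per kb, RRAGD made up 45.7 ± 7.34% of the sum of RRAGC and RRAGD in resistant and 12.1 ± 2.39% in control libraries (SD, n = 3), and RRAGC did not pass the test (0.13, limma adjusted p = 0.433). FLCN, the folliculin that activates RRAGC and RRAGD, rose by 0.41, and LAMTOR1, the anchor of the Rag GTPases, fell by 0.25 on the log2 scale. Both calls were lost with limma without trend.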

How the data were processed

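RNA-seq of 3 resistant and 3 control libraries was analysed. The authors deposited a table of 30330 genes for each library, whose values are a normalized signal. Per the submitters' processing notes the build is GRCh38; the aligner, the counter and the use of strand are not stated in the sources used here. Within 0.001 reads, 100% of these signal values, as the authors deposited them, were whole multiples of 1 step per library. The factors differed from DESeq2's median-of-ratios factors by at most 5.21e-08%, so the values are reads divided by a size factor and not raw counts; limma on log values was therefore the main test. Gene lengths in the tables equal summed exon lengths of GENCODE 29 for 99.98% of genes.

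Values were transformed as log2(value + 1), and the 24560 genes that reached 1 in 3 libraries or more entered limma-trend (limma 3.58.1, R 4.3.3, robust, two-sided). Exact permutation of 3 against 3 cannot go below 0.1 and was not used. Alternatives included edgeR 4.0.16, DESeq2 1.42.0 and limma-voom on recovered reads. On simulated data with 24200 genes tested, 87 of 100 genes changed 2-fold and 76 of 100 changed 1.5-fold were called, and 7.39% of calls were false. Only those genes were changed in the simulation, where 10204 genes were called in the data. Its share of false calls therefore does not carry over to these data.

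The 34 genes and the lists were chosen with earlier results of these data known. Named genes were all 34, and from each further list the 2 largest rises and the 2 largest falls among called genes without overlap. Paralogs outside this rule (TCIRG1, MITF, MAP1LC3A, GABARAP, GABARAPL2, WIPI2, WDR45B and RRAGC) were added to complete the families, WIPI2 and WDR45B after their values were seen. Replicate numbers are not tied to a batch in the labels.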

Additional observations from a re-analysis of the deposited data

How the results depend on the processing

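The genes called over all genes stayed in number within 1.5 times the reported 10204 in all 18 settings. On the recovered reads, edgeR with TMM called 10159 genes and DESeq2 8885. The number of the 34 genes called higher was 14, and it was 6 with median centring, 7 with limma without trend and 12 to 15 when single libraries were left out. The number called lower was 11, with a range of 9 to 12 over the settings and 11 without any single library. Medians over classes moved most with scaling. With median centring they were -0.0119 for all 34 genes, -0.0114 for hydrolases, 0.0615 for membrane and cholesterol proteins, -0.0801 for the proton pump, -0.107 for the autophagy machinery and 0.038 for transcription factors, and with quantile normalization 0.20 for all 34 genes and 0.31 for membrane and cholesterol proteins. Leaving out single libraries gave 0.17 to 0.21 for that last class, -0.0339 to 0.1004 for the proton pump (below 0 without resistant 1) and -0.0201 to 0.1195 for the autophagy machinery (below 0 without resistant 2, resistant 3 or control 3), so the sign of both medians is not fixed. Among the 34 genes and the named further genes, signs turned in 6 that were not called: with median centring CTSA (-0.0114), CTSZ (-0.0124), ATP6V1B2 (-0.0801), WIPI1 (-0.107) and TFEB (-0.0693). When single libraries were left out, ATP6V1B2 ran from -0.0371 to 0.1004, TBK1 from -0.1003 to 0.0068, WIPI1 from -0.0201 to 0.1195 and TFEB from -0.0360 to 0.1522. The cause was not tested, except that median centring moves the median of all genes by -0.13 by construction.

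With the replicate number as a block, the genes called over all genes numbered 10175. Of the 34 genes, 14 were called higher and 11 lower, and no call of a named gene changed. Deviations of same-numbered libraries correlated at -0.00148, 0.000115 and 0.00671, and not every library correlated best with its own number. No pairing by number was thus seen, but with 3 libraries per group these values cannot exclude a batch shared by number. Depth was similar across libraries and limits the genes at a few reads, ATP6V0D2, ATP6V0A4 and MCOLN2.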
